A study of Homo sapiens with 6 samples.

Results

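The UBE2 genes, which encode the ubiquitin-conjugating (E2) enzymes and their close relatives, were examined in SW839, a line of renal cell carcinoma cells, after knockdown of the ubiquitin ligase RNF25. A gene was a member when its symbol began with UBE2 and a further letter, held only letters and digits, and did not end in P plus digits, which is how most pseudogenes are named. Of the 30267 genes in the deposited table, 38 met this rule. Bulk RNA-seq covered 6 libraries, 3 from cells with an RNF25 hairpin (genotype shRNF25) and 3 from cells with the pLKO vector (genotype shControl). According to the study's methods, such lines were made by lentiviral infection and puromycin selection, so both groups carry a vector and passed selection. All 6 samples, the controls too, carry a treatment text that names the RNF25 plasmid, and the groups therefore rest on titles and genotype labels. The shRNF25 libraries carry a single hairpin name, and no second hairpin, rescue or other cell line is part of these libraries. The series text speaks of biological triplicates without describing separate cultures, so p-values measure the spread between these samples only.

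Ubiquitin is activated by an E1 enzyme, passed to the active-site cysteine of an E2 and then moved to a substrate with the help of an E3 ligase such as RNF25. RING-type E3 ligases hold the charged E2 beside the substrate, and the E2 often sets which type of ubiquitin chain is built. RNF25, also known as AO7, is such a RING ligase. Some relatives serve other modifiers, with UBE2M and UBE2F carrying NEDD8, and UBE2L6 carrying ISG15, while UBE2V1 and UBE2V2 lack the catalytic cysteine and act as partners of UBE2N.

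RNF25 itself had normalized counts of 694, 534 and 536 in shControl and 214, 246 and 265 in shRNF25. Values of single libraries are listed in the order of replicates 1, 2 and 3 throughout. The RNF25 mean of 588 ± 92.0 (SD, n = 3) in shControl became 242 ± 25.7 (SD, n = 3) after knockdown, with a log2 fold change of -1.27 ± 0.15 (SE, adjusted p = 0.000585). A normalized count is the number of reads on a gene divided by the size factor of its library, and all log2 fold changes are shRNF25 against shControl on log2(normalized count + 1), tested with limma and adjusted over all 16554 tested genes. Between 18647460 and 19943154 reads per library lay on genes. The shControl libraries spread more than the shRNF25 libraries. Over all tested genes the median coefficient of variation was 18.2% in shControl and 6.70% in shRNF25. Between shControl replicates 2 and 3 it was 9.72%. The shRNF25 library names form a numbered series, and the control names do not. One control stood apart from the rest. In shControl replicate 1, mitochondrial transcripts made up 12.1% of the normalized counts, against 3.58% to 4.44% in the other 5 libraries. Many results below, though not all, are therefore also given without that library. Of the 8 renal carcinoma markers, 7 were matched, and KRT8, KRT18, PAX8 and VIM were present in every library. CA9, a hallmark of clear cell carcinoma, was low at 7.74 to 50.7 in shControl and 1.85 to 8.20 in shRNF25. NDUFA4L2 was low too, at 12.2 to 33.5 in shControl and 10.5 to 29.2 in shRNF25. NNMT was at -0.76 (adjusted p = 0.0994), and at -1.09 without shControl replicate 1 (adjusted p = 0.00361). VIM, which encodes vimentin, was higher in shRNF25 with a log2 fold change of 1.31 (adjusted p = 0.00805). Of the markers of other cells, the endothelial genes PECAM1 (349.9 to 549 over the 6 libraries) and CDH5 were detected, and CDH5 went from 125 ± 65.7 to 5.89 ± 2.34 (SD, n = 3 each). The immune markers summed to at most 21.5 in any library. The part of these markers in the UBE2 results was not tested.

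Of the 38 members, 33 were tested because they reached 10 normalized counts in 3 or more libraries. The other 5, UBE2E4P, UBE2L4, UBE2L5, UBE2NL and UBE2Q2L, had at most 7 reads in any library. Knockdown of RNF25 was accompanied by lower UBE2L6, UBE2E1, UBE2E2, UBE2C, UBE2T, UBE2N and UBE2H. UBE2QL1 was higher, but it passed the filter only through the shRNF25 libraries, where it is high, so its value is a description. With it, 8 genes or 24.2% of the tested members had an adjusted p below 0.05, against 21.3% of all tested genes, and without it 7 of 32 (21.9%), so the share of changed genes was close to that of the whole table. By direction, 7 of the 33 members (21.2%) were lower against 10.8% of all genes, and UBE2QL1 was higher against 10.5% of all genes. With the study's criterion of a fold change of at least 1.5 added, 6 members (18.2%) remained against 15.7% of all genes, namely 5 lower ones (background 7.1%) and UBE2QL1 (background 8.65%). Without UBE2QL1 these were 5 of 32 (15.6%).

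Small shifts pointed mostly downward. Of the 33 members, 28 (84.8%) had a log2 fold change below 0, against 51.2% of all tested genes, and the median was -0.30 against -0.013. Under quantile normalization 24 were below 0, with UBE2G2, UBE2J2, UBE2K and UBE2O turning sign. In that fit the median was -0.20, beside 0.0054 for all genes. The normalized counts of the whole table also summed to less in shRNF25. Of that total the 38 members made up 0.324% to 0.337% in shControl and 0.311% to 0.323% in shRNF25. Whether the downward shift is particular to the UBE2 genes was not tested. The groups did not overlap for 17 lower members (51.5%, background 21.8%) and for 2 higher members (background 20.7%), 19 in all (57.6%, background 42.5%). This downward shift moved with shControl replicate 1, which had the highest value of the 3 controls for 22 members (66.7%), against 40.7% of all tested genes. Without that library 24 members were below 0, and their median was -0.18, beside -0.0068 for all genes. The spread then shrank, and 16 members (48.5%) passed the threshold, 12 lower and 4 higher, against 33.9% of all genes (17.9% lower and 16% higher). The 4 higher ones include UBE2QL1, again as a description. Over the 33 members the median coefficient of variation was 16.7% among the 3 shControl libraries, 5.86% among shControl replicates 2 and 3, and 5.45% in shRNF25. With shRNF25 replicate 1 or 3 left out instead, 3 of 32 members passed (9.38%), UBE2C, UBE2E1 and UBE2L6, against 8.94% and 9.34% of all genes in these fits. Without shRNF25 replicate 2, 5 of 32 passed (15.6%), against 9.4% of all genes.

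**Figure D1:**
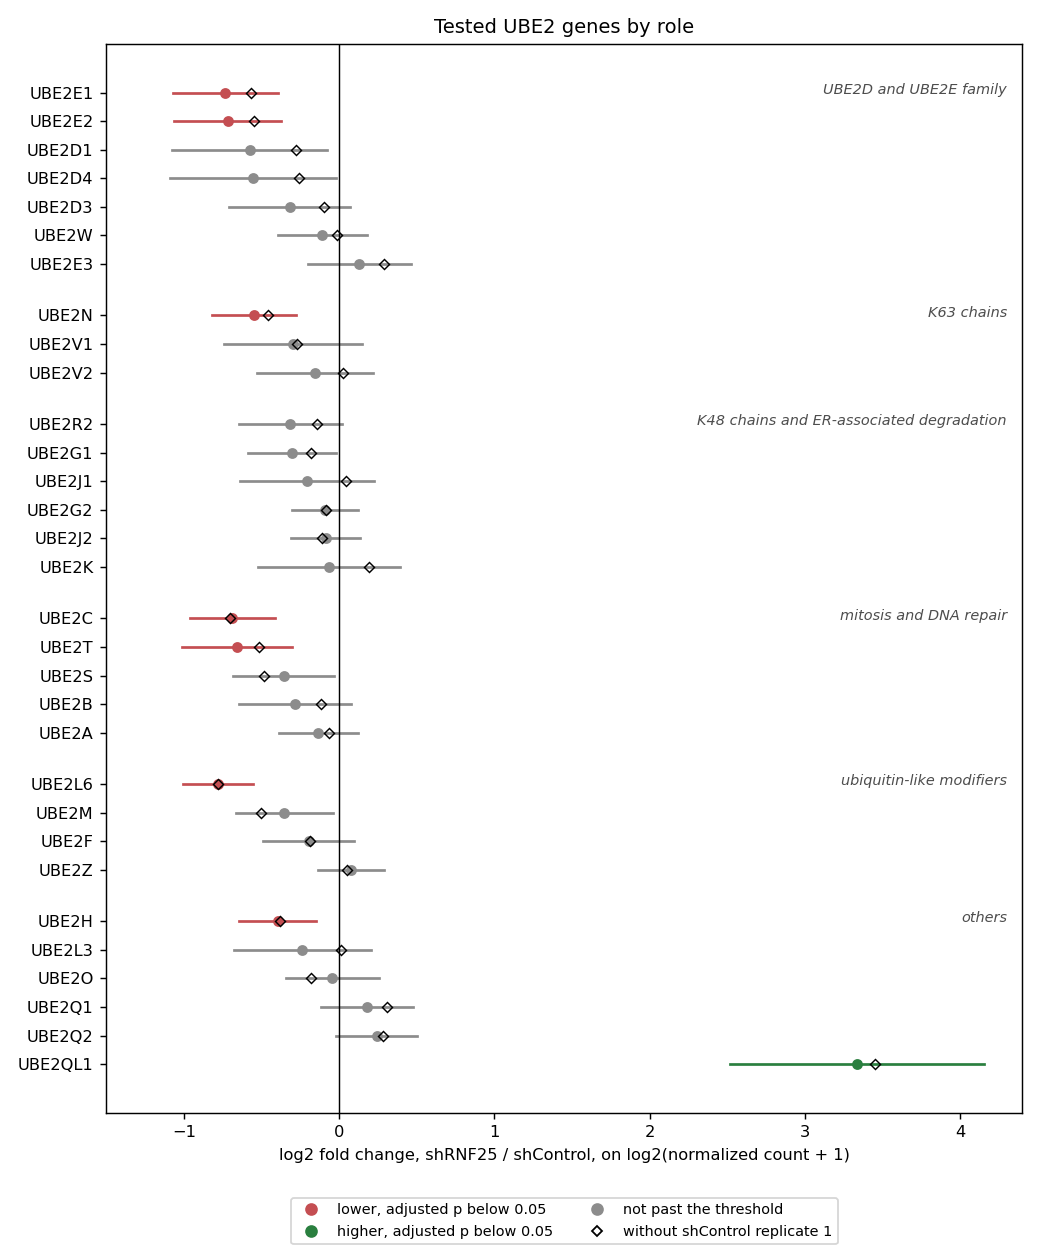
Log2 fold change (horizontal axis, shRNF25 against shControl) of 31 of the 33 tested UBE2 genes, ordered within 6 role groups. Filled points and bars give the estimate and its 95% interval from all 6 libraries, and open diamonds give the estimate without shControl replicate 1. The 7 lower genes (red) lie between -0.78 and -0.40, and UBE2QL1 (green, a description only) lies at 3.33. Most grey estimates move toward 0 when that control is left out.

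The UBE2D and UBE2E families include the E2 enzymes that pair with the widest range of RING ligases. Among these 7 genes and UBE2W, which can attach ubiquitin to the N-terminus of a protein, UBE2E1 and UBE2E2 were lower, and the other 6 did not pass the threshold. UBE2E1, on chromosome 3 from 23805903 to 23891316 (GRCh38, GENCODE 29, plus strand), had normalized counts of 2434, 1609 and 1853 in shControl and 1163, 1183 and 1149.5 in shRNF25. The highest shRNF25 value was below the lowest shControl value. Its mean went from 1965 ± 424 to 1165 ± 16.9 (SD, n = 3 each), which is 59.3% of control, with a log2 fold change of -0.73 ± 0.149 (SE, adjusted p = 0.00859). UBE2E2, its close paralog on chromosome 3 from 23203020 to 23591793, had 983, 702 and 686 in shControl and 464, 506 and 452 in shRNF25. These groups also did not overlap, and the log2 fold change was -0.72 ± 0.154 (SE, adjusted p = 0.0108). Both stayed lower without shControl replicate 1, at -0.57 for UBE2E1 (adjusted p = 0.000854) and -0.55 for UBE2E2 (adjusted p = 0.00149). The call for UBE2E2 was lost without shRNF25 replicate 1 or 3 (adjusted p = 0.0617 in both fits).

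UBE2E3, the third paralog, lies on chromosome 2 from 180967248 to 181076585 and did not pass the threshold in the fit of all libraries. Its normalized counts were 2016, 1559.6 and 1353 in shControl and 1685, 1877 and 1765 in shRNF25, and the groups overlapped. The log2 fold change was 0.13 ± 0.148 (SE, adjusted p = 0.564), with a 95% interval of -0.20 to 0.46. It was higher without shControl replicate 1, at 0.29 (adjusted p = 0.03), and an antisense gene, AC068196.1, overlaps it. Of the 50-base stretches in the longest coding transcript of UBE2E3, 10.2% also occur in AC002524.1. For UBE2E1 and UBE2E2 the share found in other genes was 0%. Ratios within a library do not depend on the scaling between libraries and were compared for 8 paralog or partner pairs, chosen after the values had been seen. The ratio of UBE2E3 to UBE2E1 was 0.828, 0.969 and 0.730 in shControl and 1.45, 1.59 and 1.54 in shRNF25. Its mean log2 value differed by 0.86 between the groups without overlap (p = 0.1 in a two-sided exact permutation test, which cannot go lower with 3 against 3, and 0.267 after Benjamini-Hochberg adjustment over the 8 ratios). For UBE2E3 to UBE2E2 the ratio was 2.05, 2.22 and 1.97 in shControl and 3.63, 3.71 and 3.91 in shRNF25, again without overlap, with a log2 difference of 0.85 (exact permutation p = 0.1, adjusted 0.267). By contrast, the ratio of UBE2E1 to UBE2E2 stayed between 2.29 and 2.70 in all 6 libraries, with a log2 difference of -0.013 (exact permutation p = 1). In each of the 6 fits without 1 library, the UBE2E3 ratios kept a log2 difference of 0.77 to 0.97 to UBE2E1 and of 0.81 to 0.90 to UBE2E2.

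**Figure D2:**
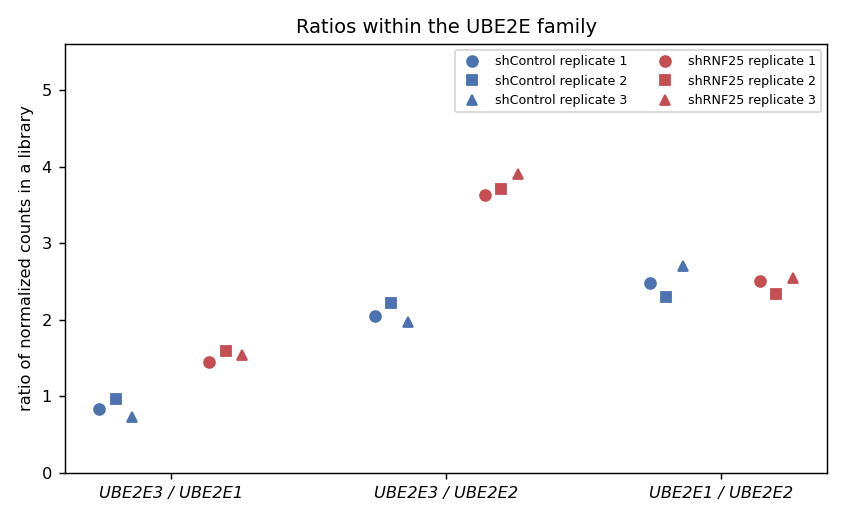
Ratio of normalized counts between members of the UBE2E family within each library (vertical axis), for shControl (blue) and shRNF25 (red) replicates 1 to 3. Both ratios with UBE2E3 on top separate the groups, 0.73 to 0.97 against 1.45 to 1.59 over UBE2E1, while UBE2E1 over UBE2E2 lies between 2.29 and 2.70 everywhere.

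UBE2E2 and UBE2E1 are neighbours on the plus strand, 214109 bases apart. Within 2 Mb of the pair, 11 other genes were tested, a set chosen after the values had been seen. Of these, 2 with few counts passed the threshold, against 21.3% of all tested genes. Both were higher, THRB-AS1 at 1.27 and MIR4442 at 1.60, which is a description only, as for UBE2QL1. Their shControl means were 4.94 and 6.66 normalized counts, and every shRNF25 library lay above every control. They thus passed the filter of 10 normalized counts through the shRNF25 libraries, where they are high, so no p-value is given. NKIRAS1, the next gene after UBE2E1, had a log2 fold change of -0.16 (adjusted p = 0.421). RPL15, a ribosomal protein gene, had -0.19 (adjusted p = 0.324) and THRB, a thyroid hormone receptor gene, -0.12 (adjusted p = 0.508). The promoter windows of the 3 UBE2E genes are shown because UBE2E1 and UBE2E2 passed the threshold and UBE2E3 did not. Each runs from 250 bases before to 50 bases after the first RefSeq start listed for the gene (GRCh38.p14), written 5′ to 3′ on the gene's own strand at chr3:23805705-23806004, chr3:23202848-23203147 and chr2:180980110-180980409, all on the plus strand. Capitals mark matches on either strand to the hypoxia response core ACGTG, the CCAAT box and the NF-κB site; the NF-κB matches of the UBE2E3 window overlap.
UBE2E1: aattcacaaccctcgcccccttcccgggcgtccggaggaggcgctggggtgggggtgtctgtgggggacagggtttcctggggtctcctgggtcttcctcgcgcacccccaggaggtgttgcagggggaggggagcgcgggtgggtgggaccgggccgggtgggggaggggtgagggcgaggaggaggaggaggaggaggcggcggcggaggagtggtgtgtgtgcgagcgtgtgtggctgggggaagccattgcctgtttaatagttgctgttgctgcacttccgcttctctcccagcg
UBE2E2: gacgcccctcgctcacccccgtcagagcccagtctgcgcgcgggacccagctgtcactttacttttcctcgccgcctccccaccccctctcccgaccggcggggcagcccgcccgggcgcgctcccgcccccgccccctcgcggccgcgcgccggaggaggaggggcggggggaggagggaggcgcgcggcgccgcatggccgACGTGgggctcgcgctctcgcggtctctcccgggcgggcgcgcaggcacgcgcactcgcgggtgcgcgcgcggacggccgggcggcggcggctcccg
UBE2E3: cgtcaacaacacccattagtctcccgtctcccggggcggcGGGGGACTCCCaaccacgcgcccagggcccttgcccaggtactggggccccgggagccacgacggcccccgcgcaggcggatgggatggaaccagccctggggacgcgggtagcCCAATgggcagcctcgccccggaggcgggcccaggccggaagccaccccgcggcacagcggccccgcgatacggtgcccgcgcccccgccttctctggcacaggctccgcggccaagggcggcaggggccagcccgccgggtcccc
The UBE2E1 window held none of the motifs searched. ACGTG was found in the UBE2E2 window and in 26.1% of 11370 promoter windows of tested genes. The UBE2E3 window held CCAAT, as did 36.6% of windows, and 2 overlapping NF-κB matches, a motif found in 6.68% of windows. A match is a description of letters and not a bound site. The UBE2E3 window lies wholly inside the gene as positioned above, which begins at 180967248. Its matches therefore do not describe the stretch before that start.

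The UBE2D genes encode promiscuous partners of RING ligases. UBE2D1, UBE2D3 and UBE2D4 did not pass the threshold, although in each of them all shRNF25 libraries lay below all controls. UBE2D3, with the most reads in this family, had 5305, 3491 and 3212 in shControl and 3145, 3178 and 3063 in shRNF25, with -0.32 ± 0.174 (SE, adjusted p = 0.223). The shControl values of UBE2D3 spread widely, from 3212 to 5305, with replicate 1 the highest. UBE2D1 had 1157, 622 and 628 in shControl and 514, 533 and 497 in shRNF25, with -0.58 ± 0.221 (SE, adjusted p = 0.0951). UBE2D4 had 441, 246 and 227 in shControl and 177, 215 and 203 in shRNF25, with -0.56 ± 0.238 (SE, adjusted p = 0.129). In these 3 genes shControl replicate 1 was the highest library. Without it, UBE2D1 was at -0.28 (adjusted p = 0.0272), past the threshold, whereas UBE2D3 was at -0.098 (adjusted p = 0.319) and UBE2D4 at -0.26 (adjusted p = 0.147). With DESeq2 on the recovered reads, the tool named in the study's methods, UBE2D1 also passed (adjusted p = 0.0381). UBE2W had a log2 fold change of -0.11 ± 0.127 (SE, adjusted p = 0.58).

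UBE2N, the E2 that builds K63-linked chains in NF-κB signaling and DNA repair, was lower. The gene lies on chromosome 12 from 93405673 to 93442262 (minus strand). Its normalized counts were 2125, 1666 and 1839 in shControl and 1195, 1363 and 1273 in shRNF25, without overlap. The mean went from 1877 ± 231 to 1277 ± 84.3 (SD, n = 3 each), 68.0% of control, with a log2 fold change of -0.55 ± 0.121 (SE, adjusted p = 0.0121). Leaving out shRNF25 replicate 1 or 3 ended the UBE2N call (adjusted p = 0.0799 and 0.0668). Without shControl replicate 1 UBE2N stayed lower, at -0.46 (adjusted p = 0.0032). NUDT4 overlaps UBE2N on the opposite strand, and the strand setting of the counting is not given. The UBE2N partners without a catalytic cysteine did not pass. UBE2V2, which acts with UBE2N in DNA repair, had 892, 675 and 561 in shControl and 593, 639 and 643 in shRNF25, with -0.16 ± 0.165 (SE, adjusted p = 0.533). UBE2V1, which acts with UBE2N in NF-κB signaling, had 112, 91.3 and 121 in shControl and 95.7, 98.8 and 69.6 in shRNF25, with -0.30 ± 0.197 (SE, adjusted p = 0.312). The ratio of UBE2N to UBE2V2 was 2.38, 2.47 and 3.28 in shControl and 2.01, 2.13 and 1.98 in shRNF25, which did not overlap (log2 difference -0.39, exact permutation p = 0.1, adjusted 0.267). The ratio of UBE2N to UBE2V1 was 19.0, 18.2 and 15.2 in shControl and 12.5, 13.8 and 18.3 in shRNF25, which overlapped (log2 difference -0.25, exact permutation p = 0.3, adjusted 0.48). UBE2V1 values are uncertain. Of its exonic bases, 42.9% also belong to the read-through gene TMEM189-UBE2V1 on the same strand in GENCODE 29, and 81.2% of the 50-base stretches in its longest coding transcript occur in other genes.

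Of 13 ligases and adaptors listed as K63 partners, 12 were tested, 2 were lower and 0 were higher (median log2 fold change -0.14). The lower ones were TRAF5, an adaptor of TNF receptor signaling, at -1.10 (adjusted p = 0.003), and BIRC3, which encodes cIAP2, at -1.18 (adjusted p = 0.000479). TRAF6, the ligase best known for pairing with UBE2N, was at -0.030 (adjusted p = 0.876). In the fit without shControl replicate 1, 5 of these genes were lower and 1, BIRC2, was higher. The background for this and the other gene lists was 10.8% of all tested genes lower and 10.5% higher. Without shControl replicate 1 these shares were 17.9% and 16%. An unadjusted p below 0.05 with limma was found for 5853 of all 16554 tested genes.

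The E2 enzymes of K48 chains and of degradation at the endoplasmic reticulum (ER) gave no call. All 6 had log2 fold changes below 0, 3 of which turned sign under quantile normalization (UBE2G2, UBE2J2 and UBE2K), from -0.31 for UBE2R2, the Cdc34-like partner of cullin ligases, to -0.066 for UBE2K. UBE2G2, which serves degradation at the ER, was among the most evenly measured members, at 5108, 5205 and 4850.3 in shControl and 4698, 4773 and 4762 in shRNF25. Its log2 fold change was -0.091 ± 0.0936 (SE, adjusted p = 0.525), with a 95% interval of -0.30 to 0.12. UBE2J2, an ER-membrane E2, was at -0.087 ± 0.0987 (SE, adjusted p = 0.563), with a 95% interval of -0.31 to 0.14. UBE2J1, the other ER-membrane E2, had 1656, 1022 and 952 in shControl and 993, 1029.7 and 1023 in shRNF25. Here again shControl replicate 1 stood above the other 5 libraries, and the estimate of -0.21 became 0.041 without it. UBE2K moved likewise from -0.066 to 0.19. UBE2G1 was at -0.30 ± 0.127 (SE, adjusted p = 0.121). Of 10 listed partners of ER-associated degradation 9 were tested, and 0 passed in either direction (1 at an unadjusted p below 0.05 with limma), with a median of -0.13. Leaving out shControl replicate 1, 3 were lower and 1 was higher.

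UBE2C and UBE2T were lower among the members that serve mitosis and DNA repair. UBE2C starts ubiquitin chains for the anaphase-promoting complex (APC/C) and lies on chromosome 20 from 45812576 to 45816957 (plus strand). It had normalized counts of 4359, 5149 and 3993 in shControl and 2588, 2940.4 and 2820.5 in shRNF25. The groups were well apart, and the mean went from 4500.2 ± 590.5 to 2783 ± 179 (SD, n = 3 each), 61.8% of control. The log2 fold change was -0.69 ± 0.121 (SE, adjusted p = 0.00431), and it passed the threshold in all 14 alternative fits, with a range of -0.77 to -0.55. UBE2S, which extends the chains that UBE2C starts, had 6430.4, 8807 and 7914 in shControl and 5191, 6562 and 6257 in shRNF25. The highest shRNF25 value exceeded the lowest shControl value, and the log2 fold change was -0.36 ± 0.144 (SE, adjusted p = 0.11). UBE2S was lower without shControl replicate 1, at -0.48 (adjusted p = 0.00831). UBE2S values are uncertain because 17.5% of its 50-base stretches also occur in the pseudogenes UBE2SP1 and UBE2SP2.

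Of 22 APC/C subunits and mitotic genes listed as partners of UBE2C and UBE2S, 0 passed the threshold in either direction (3 at an unadjusted p below 0.05 with limma), with a median of -0.095. CDC20, the APC/C activator, had 3888, 5328 and 3703 in shControl and 2989, 3537 and 3476 in shRNF25, without overlap, and a log2 fold change of -0.35 (adjusted p = 0.127). MKI67, a proliferation marker, was at -0.45 (adjusted p = 0.231) and CCNB1, which encodes cyclin B1, at -0.064 (adjusted p = 0.809). Without shControl replicate 1, CDC20 (-0.42), CDC23 (-0.23) and FZR1 (-0.41) were lower and ANAPC1 (0.30) was higher. Whether UBE2C fell more than these genes was not tested.

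UBE2T, which places ubiquitin on FANCD2 and FANCI in the Fanconi anemia pathway, lies on chromosome 1 from 202331657 to 202341980 (minus strand). Its normalized counts were 1018, 873 and 663 in shControl and 516, 548 and 529 in shRNF25. The controls spread from 663 to 1018, yet all lay above the shRNF25 libraries, which held between 516 and 548. The log2 fold change was -0.66 ± 0.157 (SE, adjusted p = 0.0173), and -0.52 without shControl replicate 1 (adjusted p = 0.00839). This call was lost without shControl replicate 2 and without each of the shRNF25 replicates (adjusted p = 0.0572 to 0.0866). Of 10 listed Fanconi genes 0 passed (2 at an unadjusted p below 0.05 with limma), with FANCA at -0.37 (adjusted p = 0.0673) and FANCD2 at -0.13 (adjusted p = 0.568). Of the Fanconi genes, FANCA and FANCE were lower without shControl replicate 1. The UBE2T promoter window (chr1:202341887-202342186, minus strand, RefSeq, GRCh38.p14) is shown because the gene was lower and its window holds cell cycle motifs. Capitals mark CCAAT boxes and the cell cycle homology region TTTGAA, motifs known from promoters of genes that peak in mitosis.
UBE2T: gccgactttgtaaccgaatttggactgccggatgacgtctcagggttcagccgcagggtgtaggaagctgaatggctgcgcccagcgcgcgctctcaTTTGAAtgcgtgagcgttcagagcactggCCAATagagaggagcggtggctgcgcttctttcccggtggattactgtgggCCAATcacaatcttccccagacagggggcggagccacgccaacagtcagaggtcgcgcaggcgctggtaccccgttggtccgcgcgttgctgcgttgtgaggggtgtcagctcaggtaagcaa
TTTGAA begins 153 bases before the start, and CCAAT begins 124 and 73 bases before it. Among 11370 promoter windows of tested genes, 9.68% held TTTGAA on either strand and 36.6% held CCAAT, and of the 26 member windows 2 and 7 did. The E2F sites TTTCCCGC (2.53% of windows) and TTTGGCGC (1.03%) were in 0 member windows, which says only that these letters are not in them. UBE2A and UBE2B, the RAD6 enzymes of DNA damage tolerance, were at -0.13 (adjusted p = 0.432) and -0.28 (adjusted p = 0.237), and of 7 listed RAD6 partners 0 passed (0 at an unadjusted p below 0.05 with limma). UBR1 was the 1 RAD6 partner past the threshold without shControl replicate 1, and it was higher, at 0.35 (adjusted p = 0.0107).

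UBE2L6, the E2 for the interferon-induced modifier ISG15, had the largest decrease among the 33 tested members. The gene lies on chromosome 11 from 57551656 to 57568284 (minus strand), and its normalized counts were 2495, 2606 and 2387 in shControl and 1542, 1442 and 1377 in shRNF25. Replicates agreed closely here, and the mean went from 2496 ± 109 to 1454 ± 82.8 (SD, n = 3 each), 58.2% of control. The log2 fold change was -0.78 ± 0.101 (SE, adjusted p = 0.000987). It was -0.78 without shControl replicate 1, and over the 14 alternative fits it stayed between -0.82 and -0.68 with adjusted p-values of at most 0.0132. No 50-base stretch of its longest coding transcript occurs in another gene.

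None of the other genes listed for ISG15 was lower past the threshold with limma, HERC5 coming nearest. Of 8 genes listed for the ISG15 pathway, 7 had log2 fold changes above 0, and 2 were higher past the threshold, against 10.5% of all tested genes. The higher ones were MX1, an antiviral GTPase, with 3834, 4393 and 2435 in shControl and 5726, 5684 and 5199.6 in shRNF25 and a log2 fold change of 0.68 (adjusted p = 0.0356), and HERC6, a relative of the ISG15 ligase, with 493, 534 and 294 in shControl and 727, 753 and 736 in shRNF25 and 0.79 (adjusted p = 0.0246). For both genes every shRNF25 library was above every control. ISG15 itself had 3225, 6502 and 3749 in shControl and 6649, 6252 and 5856 in shRNF25, with overlap, at 0.54 (adjusted p = 0.118). UBA7, the E1 for ISG15, was at 0.21 (adjusted p = 0.543), and HERC5, the main ISG15 ligase, at -0.54 (adjusted p = 0.102). USP18, which removes ISG15, was at 0.53 (adjusted p = 0.0593). After leaving out shControl replicate 1, 4 of the 8 were higher, IFIT1 and IFIT3 joining MX1 and HERC6, and 0 were lower. The 300-base RefSeq window of UBE2L6 (chr11:57567886-57568185) held no match to the interferon-stimulated response element, searched by its core on both strands. Of all promoter windows, 2.88% held one. On the minus strand the gene as positioned above begins at 57568284, so this window lies wholly inside it. The stretch before that start was not searched, and the missing match does not describe it.

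**Figure D3:**
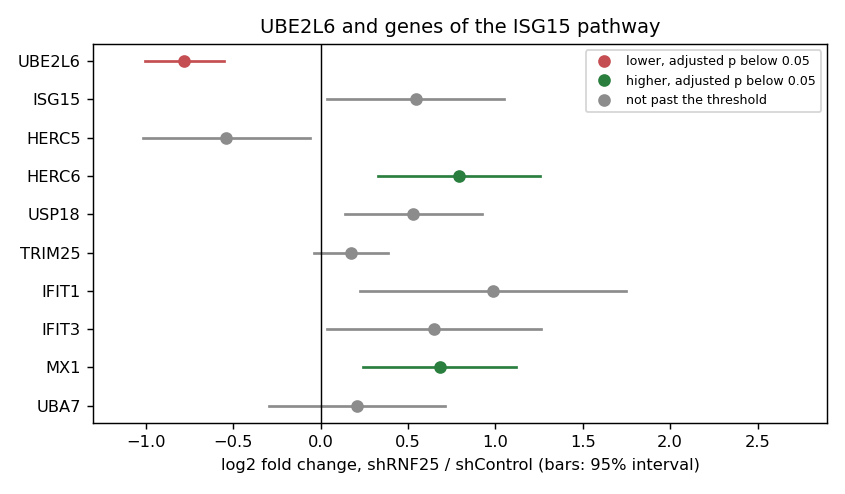
Log2 fold change (horizontal axis, points) with its 95% interval (bars) for UBE2L6, the 8 listed genes of the ISG15 pathway and the E1 gene UBA7. UBE2L6 at -0.78 is the only one in red, while HERC6 at 0.79 and MX1 at 0.68 are higher past the threshold (green), and the intervals of the others did not pass it after adjustment (grey).

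The NEDD8 enzymes and UBE2Z gave no call. UBE2M, which loads NEDD8 on most cullins, had 3511, 4857 and 4813 in shControl and 3329, 3588 and 3299.9 in shRNF25. For UBE2M it was shControl replicate 1 that lay low among the controls, and the log2 fold change of -0.35 ± 0.139 (SE, adjusted p = 0.103) became -0.51 without it (adjusted p = 0.000828). Of the 50-base stretches of UBE2M, 10.7% also occur in UBE2MP1. UBE2F, the NEDD8 E2 for CUL5, was at -0.20 ± 0.13 (SE, adjusted p = 0.315), and 16.2% of its exonic bases are shared with the read-through gene UBE2F-SCLY. UBE2Z, the E2 for the modifier FAT10, was at 0.075 ± 0.0945 (SE, adjusted p = 0.604), with a 95% interval of -0.14 to 0.29. Of 14 genes listed for each of the NEDD8 and SUMO pathways, 0 passed in either (1 each at an unadjusted p below 0.05 with limma), with medians of -0.027 and -0.0071. Leaving out shControl replicate 1, 0 NEDD8 genes passed and 1 SUMO gene was higher.

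UBE2QL1 showed the largest difference of the 33 tested members. It encodes a short relative of the UBE2Q enzymes and has been described as a candidate tumor suppressor in renal cancer. The gene lies on chromosome 5 from 6448623 to 6494909 (plus strand), with normalized counts of 2.21, 1.03 and 2.16 in shControl and 31.0, 21.2 and 28.6 in shRNF25. These values rest on 2, 1 and 2 reads in the shControl libraries and 34, 23 and 30 reads in the shRNF25 libraries. From 5 against 87 reads in all, the ratio was 15.1, which is a description only. The log2 fold change was 3.33, a value that depends on the pseudocount and was 2.22 with 5 added. No p-value or interval is given, since UBE2QL1 passed the filter on low values only through the shRNF25 libraries. It was therefore not tested with at least 50 counts required or with an shRNF25 library left out. Its level remained low, at 6.24 normalized counts per kb of exon in shRNF25, whereas UBE2Q1 had 528 and UBE2Q2 124.

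The promoter window of UBE2QL1 (chr5:6448609-6448908, plus strand, RefSeq, GRCh38.p14) is shown because this gene was the only member higher past the threshold in the fit of all libraries. It is written in lower case throughout, since it held none of the 7 motifs searched. The gene as positioned above begins at 6448623, so most of the window lies inside it. The missing motifs and the base content below therefore describe mainly that stretch and not the bases before the gene.
UBE2QL1: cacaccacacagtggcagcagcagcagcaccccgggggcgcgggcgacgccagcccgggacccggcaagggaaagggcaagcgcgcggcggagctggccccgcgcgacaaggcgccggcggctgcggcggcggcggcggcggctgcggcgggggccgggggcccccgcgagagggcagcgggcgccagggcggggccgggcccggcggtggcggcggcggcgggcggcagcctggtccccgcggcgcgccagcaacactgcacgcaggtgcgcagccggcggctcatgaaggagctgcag
Its GC content was 82.3%, against a median of 65% over the 11370 windows, and it held 47 CpG dinucleotides. The longer relatives were measured with many more reads. UBE2Q2 had 426, 392 and 393 in shControl and 516, 451 and 466 in shRNF25, without overlap, and 0.24 ± 0.117 (SE, adjusted p = 0.175). UBE2Q1 had 2332, 1838 and 1709 in shControl and 2097, 2295 and 2202 in shRNF25, with 0.18 ± 0.131 (SE, adjusted p = 0.366). Both were higher without shControl replicate 1, UBE2Q2 at 0.28 (adjusted p = 0.047) and UBE2Q1 at 0.31 (adjusted p = 0.012).

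UBE2H, the E2 of the CTLH ligase complex on chromosome 7 from 129830732 to 129952949 (minus strand), was also lower. Its normalized counts were 3240.1, 3427 and 2877 in shControl and 2609, 2283 and 2353 in shRNF25, without overlap, and the log2 fold change was -0.40 ± 0.111 (SE, adjusted p = 0.0326). Of the 7 lower calls this was the one lost in the most fits, 7 of 14 alternatives, at adjusted p-values up to 0.164. Without shControl replicate 1 UBE2H stayed lower, at -0.38 (adjusted p = 0.0137). UBE2L3, which serves HECT and RBR ligases such as those of linear ubiquitin chains, had 3838, 2232 and 2319 in shControl and 2151, 2551 and 2208 in shRNF25. The high value of shControl replicate 1 stood beside an estimate of -0.24 ± 0.196 (SE, adjusted p = 0.421), which was 0.014 without that library. UBE2O, a large enzyme that acts as E2 and E3, was at -0.044 ± 0.133 (SE, adjusted p = 0.843), with a 95% interval of -0.34 to 0.26.

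**Figure D4:**
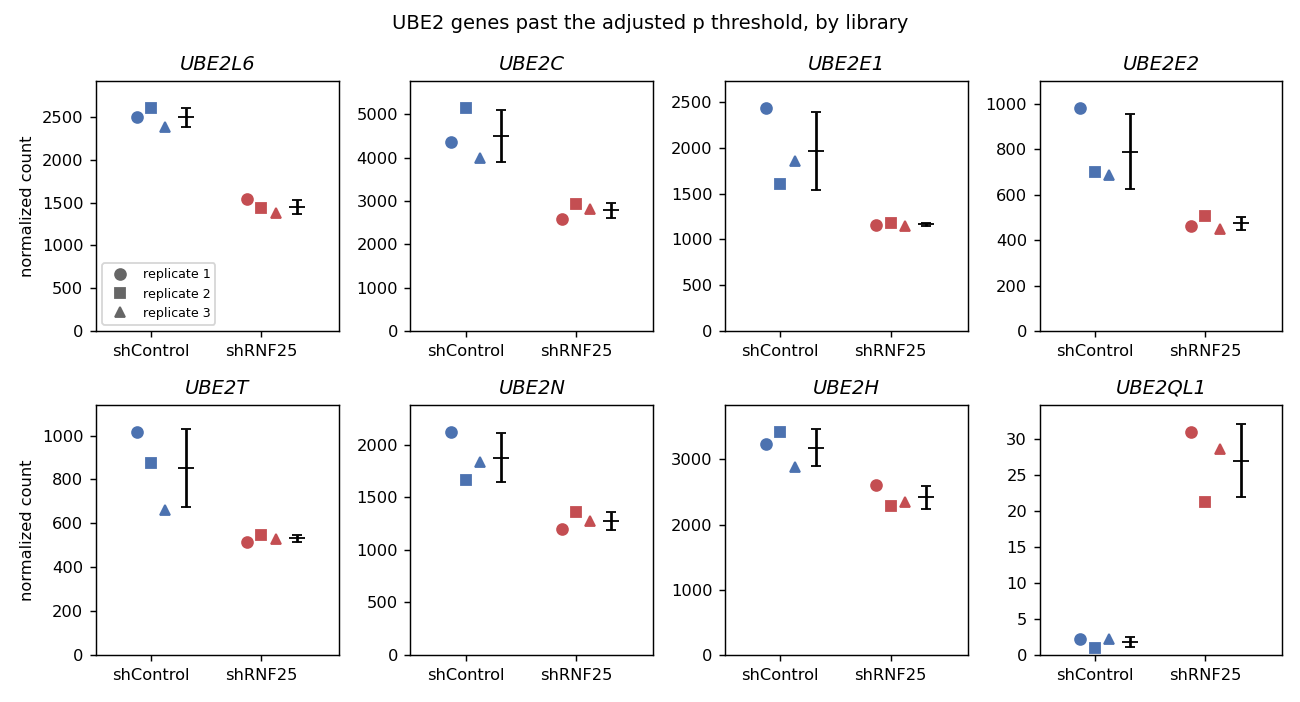
Normalized count (vertical axis, from 0) in each library for the 7 lower members and for UBE2QL1. The latter passed the filter on low values only through the shRNF25 libraries and is shown as a description. Symbols mark the replicate number, and the black dash and bar beside each group give its mean and SD (n = 3). In UBE2L6 the controls lie between 2387 and 2606 and the shRNF25 libraries between 1377 and 1542, while UBE2QL1 goes from at most 2.21 to at least 21.2.

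To compare levels between genes, normalized counts were divided by the merged exon length of each gene in GENCODE 29, for the 37 members with a match there. UBE2C, UBE2S and UBE2M had the highest levels in both groups. UBE2C had 3499 ± 459 (SD, n = 3) and 2164 ± 139 (SD, n = 3) normalized counts per kb in shControl and shRNF25. UBE2S had 2768 ± 431 (SD, n = 3) and 2153 ± 258 (SD, n = 3), and UBE2M 2399.5 ± 418 (SD, n = 3) and 1860.0 ± 86.5 (SD, n = 3). In shRNF25 the levels of UBE2C and UBE2S differed by less than the spread of UBE2S, whereas in shControl UBE2C lay above UBE2S in every library. UBE2L6 followed at 1136 ± 49.8 (SD, n = 3) and 662 ± 37.7 (SD, n = 3) and was above UBE2Z in all controls but below it in all shRNF25 libraries, where UBE2Z had 972 ± 28.5 (SD, n = 3) and 1024 ± 31.9 (SD, n = 3). Summed over the 37 genes, the level per kb was 20445, 20449 and 18903 in shControl and 14833, 16179 and 15481 in shRNF25. UBE2C alone made up 16.4% to 19.6% of this sum in shControl and 13.6% to 14.2% in shRNF25. These sums describe RNA and not enzyme amounts, and they rest largely on a few abundant genes. The normalized counts of the whole table also summed to less in shRNF25. They were 2.20e+07, 2.03e+07 and 2.01e+07 in shControl and 1.77e+07, 1.83e+07 and 1.82e+07 in shRNF25. The 38 members made up 0.333%, 0.337% and 0.324% of that total in shControl and 0.311%, 0.323% and 0.313% in shRNF25.

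The ubiquitin and E1 genes act upstream of the E2 enzymes, and their counts stand beside 21.3% of all tested genes past the threshold. Of the 4 ubiquitin genes 0 passed (2 at an unadjusted p below 0.05 with limma). In the fit without shControl replicate 1, 2 of the 4 were lower. Of 9 E1 genes 1 was lower and 0 were higher. That gene was ATG7, the E1-like enzyme of autophagy, with 1378, 1689 and 1672 in shControl and 1232, 1191 and 1229.6 in shRNF25 and a log2 fold change of -0.37 (adjusted p = 0.0471). UBA1, the main ubiquitin E1, was at 0.046 (adjusted p = 0.787), and UBA6, the second ubiquitin E1, at -0.39 (adjusted p = 0.115). Of 8 genes with an E2 fold and another name, 0 passed (0 at an unadjusted p below 0.05 with limma), among them CDC34 at -0.14 (adjusted p = 0.513) and BIRC6 at -0.044 (adjusted p = 0.819). CDC34 and ATG7 were the genes of these last 2 lists past the threshold, both lower, without shControl replicate 1. TRIP4, a nuclear coactivator studied beside RNF25, was at -0.076 (adjusted p = 0.73).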

How the data were processed

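Total RNA of SW839 cells was depleted of ribosomal RNA and sequenced in 6 libraries. Per the labels' processing notes, the authors used fastp, HISAT2 and HTSeq with GRCh38, and per the methods DESeq2. The annotation release, the counting mode and the strand setting are not given in the sources used here. The deposited values are normalized counts, a signal in which each gene count was divided by 1 size factor per library. They were whole multiples of the smallest step of each library, and whole reads came back for 100% of values (tolerance 0.01 reads). The size factors were those DESeq2 computes from these reads.

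Values were used as deposited, as log2(normalized count + 1). The 16554 genes with at least 10 in at least 3 libraries were fitted with limma 3.58.1 (lmFit, eBayes with a trend) in R 4.3.3, with group as the only term and Benjamini-Hochberg adjustment. Count models were edgeR 4.0.16 and DESeq2 1.42.0 on the recovered reads. On simulated data over 16483 genes with 200 changed by a fold of 2, limma recovered 99% with 8 false calls. The simulation gave all genes and both groups the same dispersion, held no outlying library and changed no gene with low counts. It therefore checks the procedure only and does not measure the reliability of calls in these data. Reads are not deduplicated by molecular identifiers. Members, lists and tests were chosen with earlier results of these data known. Values in every library were given for members past an adjusted p of 0.05 and a fold of 1.5, for UBE2D and UBE2E members and for others described at length. Positions, exon lengths and shared 50-base words come from GENCODE 29 (GRCh38), matched by symbol for 37 members, and promoter windows from RefSeq (GRCh38.p14) for 26. With HTSeq, reads on 2 overlapping genes can be dropped. Beside the overlaps named in the text, UBE2W shares 5.21% of its exonic bases with AC022826.2 on its own strand. Genes on the opposite strand overlap UBE2A (NKRF), UBE2D3 (AC018797.2), UBE2D4 (AC004951.4 and POLR2J4), UBE2L3 (RIMBP3C) and UBE2Q1 (UBE2Q1-AS1). Some genes, and the 3 ratios that use one of them, are not reported here.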

Additional observations from a re-analysis of the deposited data

How the results depend on the processing

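RNF25 was lower in all 14 alternative fits, with log2 fold changes of -1.34 to -1.15 over the fits without 1 library. Among the members, 7 were lower and 1, UBE2QL1, was higher, the latter as a description only. With 1 library left out, the lower members numbered 3 to 12 and the higher ones 0 to 4, and the whole table held 826 to 2915 lower and 611 to 2614 higher genes, against 1785 and 1740. The extremes came without shControl replicate 1 (12 and 4 members) and without an shRNF25 replicate (3 to 5 lower and 0 higher members, UBE2QL1 not being tested). Requiring at least 50 counts left 0 higher members, since UBE2QL1 was not tested. With a fold change of at least 1.5 also required, 1175 genes of the whole table were lower. The median over the members ranged from -0.33 to -0.18 in the fits without 1 library, and no scaling moved the median of all genes past 0.1. Signs turned for members that passed no threshold. Under quantile normalization these were UBE2G2 (0.077), UBE2J2 (0.028), UBE2K (0.017) and UBE2O (0.060). Without 1 library UBE2J1 went from -0.36 to 0.041, UBE2K from -0.21 to 0.19, UBE2L3 from -0.38 to 0.014, UBE2O from -0.18 to 0.058 and UBE2V2 from -0.31 to 0.021. The ratio difference of UBE2E1 to UBE2E2 (-0.071 to 0.047) also crossed 0. The cause was not tested.

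The replicate numbers are shared by the groups. Deviations of same-numbered libraries from their group means had correlations across genes of -0.064, -0.087 and 0.047. Libraries with different numbers had correlations of -0.139 to 0.183. With 3 libraries per group these values cannot exclude a pairing. With the replicate block, 6 members were lower and 1 was higher, UBE2H being lost (21.2%, against 18.6% of all genes). Among the 33 members, edgeR called the same 8 (24.2%, against 21.3% of all genes), and DESeq2 called 10 (30.3%, against 23.4%), these among them. UBE2QL1 is in each of these counts as a description only. All ratio alternatives were chosen after seeing the data.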
